A study of Mus musculus with 8 samples.

Results

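The ribosomal protein genes were followed here as a set of promoters that nearly every cell keeps in use. Members were chosen by position and name only: a peak belonged to the set when its summit lay within 5 kb of a protein-coding gene whose symbol begins with Rpl or Rps followed by a number, or of Rplp0, Rplp1, Rplp2 or Rpsa. The Rps6k kinases were left out, as were genes off the autosomes. The rule took 87 of 20665 autosomal protein-coding genes: 40 genes of large subunit proteins, 30 of small subunit proteins, 3 of the stalk, 7 paralogs and 7 copies or genes that encode no subunit.

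The study measured open chromatin by ATAC-seq: the enzyme Tn5 cuts accessible DNA and leaves sequencing adapters at the cuts. The cells were mouse embryonic stem cells of the GLI1-FTA line (strain A2Lox.cre), differentiated in culture towards cardiac progenitors, with 150000 cells collected. Controls had no drug and were taken at day 5 (D5, 2 libraries) or day 7 (D7, 3 libraries). The GLI1 group (3 libraries, D7) was kept in 500 ng/ml doxycycline over the 48 hours before D7 to overexpress GLI1, a transcription factor of the Hedgehog pathway. No control received doxycycline, so the effect of the drug and that of GLI1 cannot be told apart. All groups share the same line.

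Each group had 1 pooled peak list, so no difference below has a replicate check and none carries a p-value. Intervals are Wilson 95% intervals over regions or genes, which are not replicates, and they cover counting error only. Beside a count of 0, the upper limit given is that of 3 counts of the total, in place of a Wilson bound. The level given is the fold, the authors' enrichment of a peak's summit over the caller's background. The D5 list was called against another background than the D7 lists, so its folds are ranked within D5 only. Overlapping peaks of a list were joined into regions: 38281 at D5, 37973 in D7 control and 42192 with GLI1. Of the cardiac progenitor markers, Isl1 had a fold at its start of 9.27 at D5, 28.1 in D7 control and 40.4 with GLI1, and Mef2c of 5.47, 15.5 and 20.7. The start of Nkx2-5 had 5.43 at D5, 3.24 in D7 control and no summit with GLI1. The start of Hand2 had 3.06 in D7 control alone. The strongest Hand2 peak within 5 kb was present in each list, with 6.16 at D5, 7.92 in D7 control and 6.49 with GLI1. By the same measure Tbx5 had a strongest peak of 6.94 at D5, 4.32 in D7 control and none with GLI1. At D7 the Sox2 start (neural) had 25.7 in control and 16.9 with GLI1. The Kdr start (endothelial) had 23.2 and 19.1, and the Foxa2 start (endoderm) 8.46 and 20.4. The other endothelial markers went both ways. Their strongest peaks were 8.64 and 10.4 for Tal1, 3.60 and 5.62 for Cdh5, and 5.94 and 5.09 for Pecam1. Among pluripotency markers, Pou5f1 had a strongest peak of 13.3 and 4.21, Nanog 4.86 and 4.21, and Zfp42 none. Markers of more than 1 lineage were therefore open in the pooled lists.

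A ribosome is made of a small subunit, which reads the mRNA, and a large subunit, which joins amino acids, and each holds ribosomal RNA with many proteins, whose genes are scattered over the genome. Cells need these proteins in like amounts, and the genes are among the most strongly transcribed in growing cells. Their promoters are typically short, lack a TATA box and begin transcription within a run of pyrimidines, the 5′ terminal oligopyrimidine tract through which growth signals control translation of the mRNA.

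Regions of ribosomal protein genes numbered 123 at D5 (173 peaks of 46805), 138 in D7 control (231 of 58220) and 135 with GLI1 (230 of 63904). All 73 subunit and stalk genes had a region at D5, and 72 had one in each D7 list, the exception being Rps25. Of all 87 genes, 82 had a region at D5, 79 in D7 control and 80 with GLI1. The nearest gene to the summit was a ribosomal protein gene for 67.5%, 67.4% and 66.7% of these regions in the same order, and the remainder lay closer to a neighbour. At the edge of the window in the GLI1 list, the outermost peak inside was 4948 bp from Rps15 with a fold of 4.74, and the closest outside was 5215 bp from Rpl22 with a fold of 3.69.

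The 11 promoters printed next are those on which the sequence and level results turn: the 6 that hold a CG-rich palindrome of 10 bases, the promoter with the highest fold in D7 control (Rpl13a), those of the subunit genes with the highest and lowest GLI1 to control ratio (Rpl13 and Rpl38), Rps25, which had no D7 region, and Rpl3l, a muscle paralog with no summit at its start. Each runs from 100 bases before an annotated start to 20 bases from it, 5′ to 3′ on the gene's strand. The bases are from RefSeq on GRCm38.p6 (mm10). Capitals mark this palindrome (the run of 10 capitals in the 6 promoters from Rps6 to Rpl26), CCGGAA read on either strand, and 3 pyrimidine runs on the gene's strand within 10 bases of the start: CTTTCC, then CTTTTC, and finally CTCTTC.

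Rps6: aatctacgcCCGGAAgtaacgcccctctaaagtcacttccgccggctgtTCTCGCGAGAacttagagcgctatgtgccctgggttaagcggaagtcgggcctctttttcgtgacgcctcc

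Rps19: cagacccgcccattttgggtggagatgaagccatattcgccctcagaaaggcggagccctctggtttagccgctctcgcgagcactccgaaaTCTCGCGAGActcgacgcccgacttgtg

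Rps28: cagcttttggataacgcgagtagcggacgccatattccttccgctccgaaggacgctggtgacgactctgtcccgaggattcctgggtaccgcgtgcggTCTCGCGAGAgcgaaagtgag

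Rpl10a: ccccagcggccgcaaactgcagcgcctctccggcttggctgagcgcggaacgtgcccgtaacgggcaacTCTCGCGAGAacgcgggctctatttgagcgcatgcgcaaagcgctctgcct

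Rpl12: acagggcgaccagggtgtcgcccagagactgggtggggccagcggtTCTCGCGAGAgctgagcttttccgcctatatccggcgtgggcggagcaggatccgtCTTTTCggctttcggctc

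Rpl26: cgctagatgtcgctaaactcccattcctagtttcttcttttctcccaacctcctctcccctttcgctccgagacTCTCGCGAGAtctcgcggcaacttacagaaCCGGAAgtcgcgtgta

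Rpl13a: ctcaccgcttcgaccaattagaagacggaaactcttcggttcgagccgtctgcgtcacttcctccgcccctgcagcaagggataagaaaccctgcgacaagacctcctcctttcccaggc

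Rpl13: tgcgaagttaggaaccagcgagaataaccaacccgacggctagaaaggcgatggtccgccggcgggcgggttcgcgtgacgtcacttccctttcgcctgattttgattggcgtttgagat

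Rpl38: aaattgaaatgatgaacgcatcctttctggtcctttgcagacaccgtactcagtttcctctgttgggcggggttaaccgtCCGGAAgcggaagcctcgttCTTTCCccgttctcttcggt

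Rps25: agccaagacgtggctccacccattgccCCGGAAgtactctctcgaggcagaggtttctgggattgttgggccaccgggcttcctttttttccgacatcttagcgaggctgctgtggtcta

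Rpl3l: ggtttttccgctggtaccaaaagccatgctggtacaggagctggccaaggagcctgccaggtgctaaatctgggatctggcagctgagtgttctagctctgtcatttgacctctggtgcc

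The windows lie at chr4:86857348-86857467, minus strand for Rps6, the phosphorylated protein of the small subunit, and at chr7:24884492-24884611, plus strand for Rps19, which is mutated in Diamond-Blackfan anaemia. Those of Rps28 and Rpl10a lie at chr17:33824543-33824662, minus strand and at chr17:28328465-28328584, plus strand. Those of Rpl12, in the base of the stalk, and Rpl26 lie at chr2:32961612-32961731, plus strand and at chr11:68901466-68901585, plus strand. The Rpl13a window lies at chr7:45128726-45128845, minus strand, that of Rpl13 at chr8:123102250-123102369, plus strand and that of Rpl38 at chr11:114668480-114668599, plus strand. The windows of Rps25 and Rpl3l lie at chr9:44407614-44407733, plus strand and at chr17:24727726-24727845, plus strand. Every window covers the bases just upstream of the annotated start used and the outermost bases of the transcript from that start. The Rpl10a window lies mostly within the gene, which begins at 28328471, because the start used is downstream of that base.

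The promoters of ribosomal protein genes held the palindrome, CCGGAA and the pyrimidine runs more often than promoters at large. RefSeq promoter windows (250 bases before the start to 50 after) were matched for 66 of the 87 genes, 53 of them subunit or stalk genes, and for 16457 autosomal genes in all. The palindrome, which reads the same on both strands, was in 6 of 66 (9.09%, 4.23 to 18.4) against 0.753% of all windows, and against 1.22% of the 9787 windows whose start had a D7 control summit. Counting from 1 at the start base and from -1 just before it, the palindrome began at -51 in Rps6, -54 in Rpl12, -31 in Rpl10a, -26 in Rpl26, -8 in Rps19 and -1 in Rps28. So all 6 copies lay close to an annotated start, and in Rps19 and Rps28 the palindrome ran across it. Rpl10a has 2 annotated starts and Rps19 has 3, and a start whose printed window holds the palindrome was chosen. Closeness in these genes is therefore partly set by that choice. For Rpl10a the start used is base 28328565 of chromosome 17, inside the gene, which begins at 28328471. In the summit positions below, Rpl10a is counted from 28328471.

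CCGGAA, the core that Ets family factors read, was in 34 of 66 windows on either strand (51.5%, 39.7 to 63.2), against 21.4% of all and 31.0% of those with a D7 control summit. ATGGCG, the core read by YY1, was in 22 (33.3%, 23.2 to 45.3) against 12.6% and 17.3%. It can match the gene's own start codon where that falls within the window, and such matches were not separated. CTTTCC on the gene's strand within 10 bases of the start was in 10 of 66 (15.2%, 8.44 to 25.7) against 0.990% of all, and any of the 3 pyrimidine runs in 17 (25.8%, 16.7 to 37.4) against 2.61%. In Rpl38 CTTTCC began exactly at the start base.

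No other motif had a share whose interval lay above that of all windows. GGGCGG, the GC box, was in 57.6% of the windows (45.6 to 68.8) against 50.3% of all and 72.6% of those with a D7 control summit. CCAAT was in 30.3% (20.6 to 42.2) against 42.3%, TATAAA in 10.6% (5.23 to 20.3) against 15.0%, and the E-box CACGTG in 9.09% (4.23 to 18.4) against 9.01%. The palindrome that NRF1 reads, another run of 10 bases, was in 2 of 66 (3.03%, 0.835 to 10.4) against 1.49%. TGGGTGGTC, the site that GLI factors read, was in 0 of 66, which allows up to 4.55%, against 0.207% of all. That says only that these letters are not in the windows.

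The strongest peak of a ribosomal protein gene ranked high in each list, and so did the start peaks of other genes. For the subunit and stalk genes the median fold of the strongest peak was 10.8 at D5 (73 genes, range 4.84 to 17.8), 29.8 in D7 control (72 genes, 10.3 to 76.1) and 31.7 with GLI1 (72 genes, 14.6 to 69.5). The median percentile among all regions of the list was 87.6, 87.0 and 88.2. For summits within 500 bp of annotated starts it was 87.6, 86.1 and 87.2 for these genes. Other genes with such a summit had 81.2, 83.2 and 85.2, so the rank was not far above that of open starts in general. The large and small subunit sets had similar medians: 29.4 and 30.2 in D7 control, and 31.5 and 31.8 with GLI1. So the genes of either subunit were open to a similar degree, while single genes within each set differed by several-fold.

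**Figure D1:**
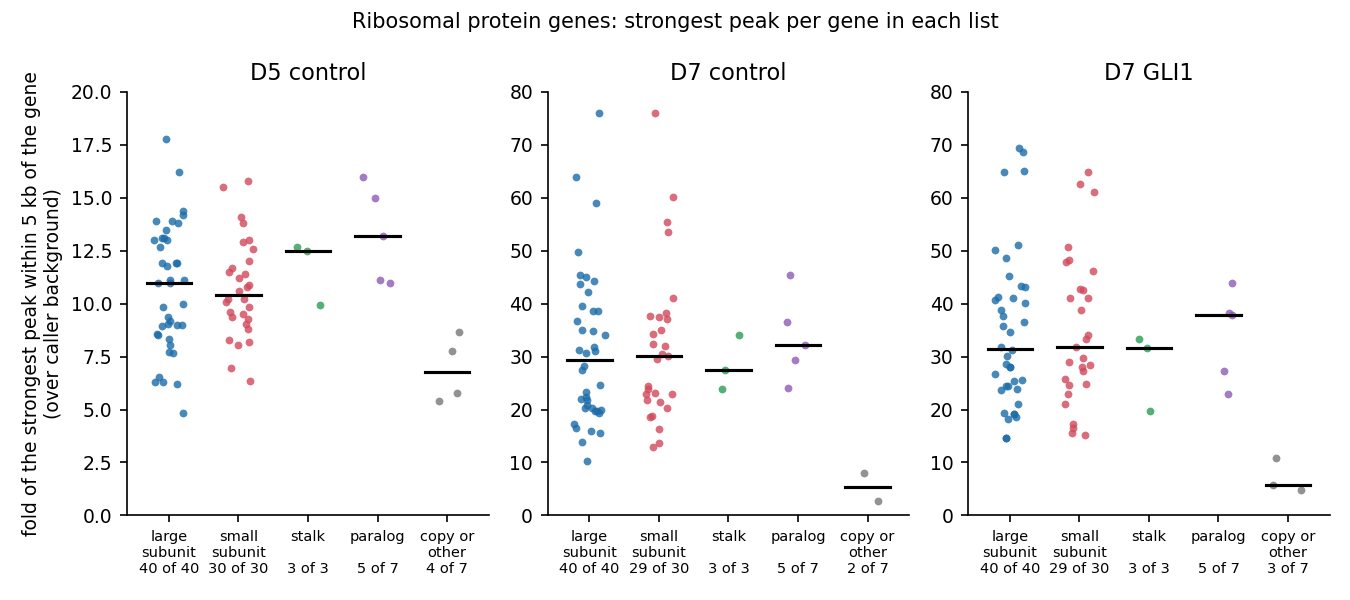
Fold of the strongest peak within 5 kb of each ribosomal protein gene (vertical axis, fold over caller background) in the 3 lists, by class. Points are genes, bars are medians over genes with a region, and the numbers under each class give genes with a region of all genes. The D5 axis has another range because that list had another background. Copies and others lie lowest, with D7 control folds of 2.70 and 7.92.

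The highest D7 control fold was 76.1, at the start of Rpl13a on chromosome 7. The same gene had 9.84 at D5 and 64.8 with GLI1. Rpl37 had 63.9 in D7 control and 69.5 with GLI1, Rps19 60.1 and 61.1, Rpl27 59.0 and 65.1, and Rps21 55.4 and 62.7. These genes were the strongest in both D7 lists bar Rpl15, whose GLI1 fold was 68.6. At the low end of the subunit genes, Rpl6 had 10.3 in D7 control and 14.6 with GLI1, Rps27 13.7 and 15.1, Rpl37a 13.9 and 19.1, and Rpl12 15.5 and 18.6. Even Rpl6, the lowest, stood at percentile 65.9 of the D7 control list.

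The proteins with distinct roles lay between these ends. Rpsa, a small subunit protein also known as the laminin receptor, had folds of 12.6 at D5, 41 in D7 control and 48.3 with GLI1. Rps6, the substrate of the S6 kinases, had 11.7, 32.4 and 33.4. Rpl3, which lies near the site where peptide bonds form, had 13.1, 34.9 and 38.8. The stalk recruits elongation factors to the ribosome: its Rplp0 had 12.7, 27.4 and 33.4, Rplp1 12.5, 23.9 and 19.7, and Rplp2 9.92, 34.0 and 31.6. The D7 control and GLI1 folds of each of these genes lay within 1.5 times of each other.

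At the start itself, a summit within 500 bp was found for 53 of the 53 subunit and stalk genes with an annotated start at D5 (100%, 93.2 to 100) and for 52 in each D7 list (98.1%, 90.1 to 99.7). Among 16391 other genes the shares were 59.5% at D5, 59.4% in D7 control and 60.6% with GLI1. Where a summit was present, the median fold was 28.4 for subunit and stalk genes in D7 control against 24.3 for other genes, and 30.0 against 26.7 with GLI1. The middle 50% of other genes (11.9 to 40.0 in D7 control) enclosed that of the subunit and stalk genes (20.1 to 35.6). Over all 66 ribosomal protein genes with an annotated start, paralogs and copies included, the shares were 89.4%, 84.8% and 86.4%. Other sets had like shares: genes of the mitochondrial ribosome had 97.1% in each list, translation factors 96.2% at D5 and 90.4% in each D7 list, and proteasome subunits 84.4%, 87.5% and 84.4%.

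Summits of ribosomal protein genes lay mostly just upstream of the start. In D7 control the median position was -52 bp (middle 50% -86 to -11) for the 56 genes with a summit against -30 bp (-85 to 25) for other genes, and 46 of 56 (82.1%) lay upstream against 65.3%. At D5 the median was -49 bp and with GLI1 -43 bp. The regions had a median width of 1161 bp in D7 control against 1202 bp for other starts, with 1.80 against 2.20 summits on average.

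**Figure D2:**
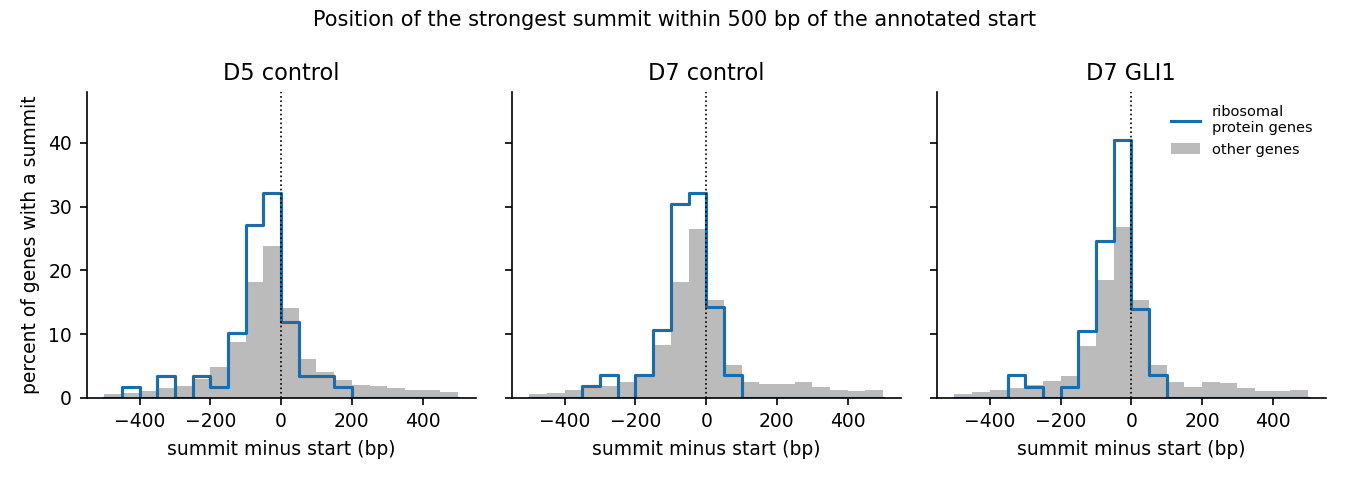
Distance from the annotated start to the strongest summit within 500 bp (horizontal axis, bp, negative upstream) as a percent of genes with a summit, in 50 bp bins, for ribosomal protein genes (line) and other genes (bars). In each list the line peaks just upstream of the start. Upstream at any distance within 500 bp lie 79.7% of D5 summits, 82.1% of D7 control summits and 82.5% of GLI1 summits.

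For 8 of the 59 genes with a D7 control region and an annotated start, the strongest peak in the window was not at the gene's own start. At Rpl41, which encodes a very short protein, the start had a fold of 34.2 and the neighbouring Zc3h10 49.7 in D7 control, and at Rpl24 the start had 23.0 beside 40.7 downstream of the gene with GLI1. Rpl35 had 18.2 at its start beside 34.0 near Arpc5l, Rpl35a 18 beside 39.6, and Rpl12 12.8 beside 15.5. The highest D5 fold of the set, 17.8, was likewise beside BC031181 in the window of Rpl17, where D7 control had 28.3 and GLI1 31.8. The region within Rpl17 itself had 5.85 at D5, 7.20 in D7 control and 14 with GLI1. For such genes the strongest peak of the window describes the neighbourhood more than the gene.

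The paralogs split into open and closed genes. Rpl22l1, the paralog of Rpl22, had folds of 15.0 at D5, 36.5 in D7 control and 37.9 with GLI1 at its start. Rpl36al had 11.1, 32.2 and 43.9, Rpl7l1 13.2, 29.3 and 27.2, and Rps27l, a paralog of Rps27 induced by p53, 11.0, 45.5 and 38.3. These 4 lay in the same range as the subunit genes. Rpl10l and Rpl39l, known from testis, had no region in any list.

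Rpl3l, the paralog that replaces Rpl3 in heart and skeletal muscle, had no summit within 500 bp of either of its annotated starts in any list. Its window held a region beside Ndufb10 that it shares with Rps2 (6.85 at D5, 24.1 in D7 control, 23.0 with GLI1) and another beside Msrb1 (16.0, 22.3 and 23.0). Within the gene, D7 control had a weak region with a fold of 3.78 that was not in the other lists. So the high folds of its window, given above as its strongest peaks in the class medians, lie next to other genes, while its start, printed above, held no summit.

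Copies and genes that encode no subunit were mostly weak or closed. Rpl31-ps12, Rpl32l and Rpl37rt had no region in any list. Rpl34-ps1 had folds of 5.77 and 5.05 at D5, none in D7 control, and 4.74 and 3.86 with GLI1. Rps27rt had 5.39, 7.92 and 10.9, in a region next to Osbpl10 and not at its own start. Rps23rg1, a retrogene copy of Rps23, had 7.75 at its start at D5 and 5.79 with GLI1 but no D7 control summit there, its sole D7 control region being at Camsap3 with 2.70.

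Ribosomal protein gene regions were absent from the other D7 list less often than regions at large. Of 138 D7 control regions, 17 had no overlap with the GLI1 list (12.3%, 7.84 to 18.8) against 31.9% of all regions and 25.6% of other regions within 5 kb of a gene. Of 135 GLI1 regions, 18 had no overlap in D7 control (13.3%, 8.60 to 20.1) against 39.2% of all and 33.6% of other regions near genes. The absences were confined to weak regions: of those with a fold of at least 10, 0 of 94 were absent with GLI1 (up to 3.19%, against 2.46% of all such regions) and 0 of 100 in D7 control (up to 3.0%, against 4.74%). Under a fold of 10, the shares were 38.6% (25.7 to 53.4) against 47.7% and 51.4% (35.6 to 67.0) against 55.2%, near the background. The set also holds many strong regions: 94 of its 138 D7 control regions had a fold of at least 10, against 13270 of all 37973. The part of this in the low share was not tested.

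Among the regions present with GLI1 and absent in D7 control, the Rps23rg1 start had a fold of 5.79. It was followed by a region beside Rpl34-ps1 and another by Rpl28 with 4.74 each, and 1 by Rpl3 with 4.04. Regions by Rpl37, Rpl34-ps1 and Rpl18 had 3.86 each, those within Rps2 and Rpl14 3.69, and that by Rps10 3.51. The subunit genes named here also had a stronger region in both D7 lists.

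The strongest region present in D7 control and absent with GLI1 lay 683 bp from Rps13, with a fold of 5.04. It sits where the running peak numbers of the GLI1 list skip, so that peaks may have been taken out there before deposit. Next were regions by Rpl41 (4.86), in Rpl38 (4.32), by Rps16 (4.14), by Rps24 (3.96) and in Rpl3l (3.78). Those by Rps29, in Rpl10a and by Rpl35 had 3.60, those by Rpl27 and Rps10 3.42, and that by Rps23 3.06. The median fold of all 17 was 3.60 and that of the 18 found with GLI1 alone was 3.78, both far under the medians of the starts.

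**Figure D3:**
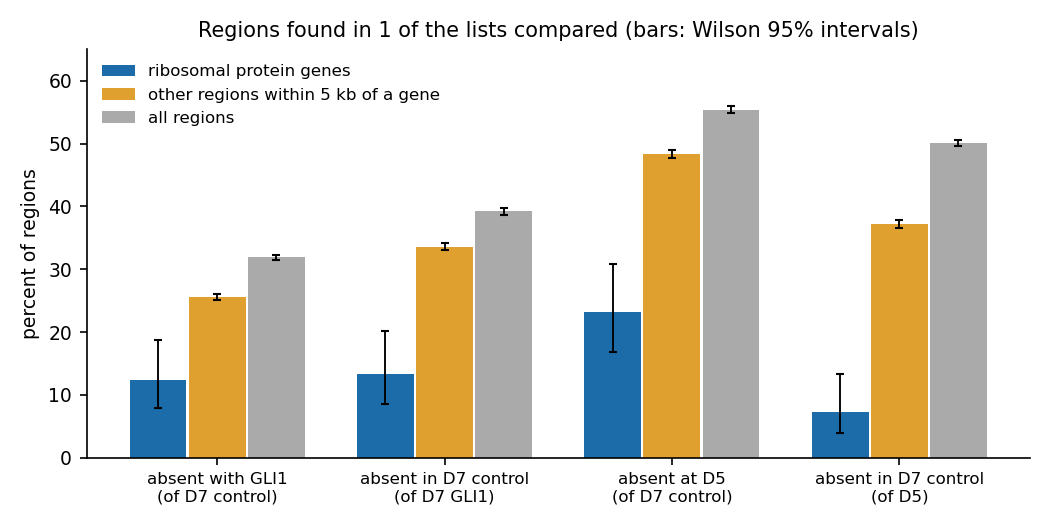
Percent of regions of a list that had no overlap in the list compared (vertical axis), for ribosomal protein genes, other regions within 5 kb of a protein-coding gene, and all regions. Error bars are Wilson 95% intervals. Ribosomal protein gene regions have the lowest share in each of the 4 comparisons, from 7.32% to 23.2%.

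Between D5 and D7 in controls, 32 of 138 D7 control regions had no D5 overlap (23.2%, 16.9 to 30.9) against 55.4% of all. Conversely, 9 of 123 D5 regions had no D7 control overlap (7.32%, 3.90 to 13.3) against 50.1% of all. These comparisons share the D7 control list with those for GLI1. Set against the GLI1 list in place of D7 control, 29 of its 135 regions were absent at D5 (21.5% against 57.3% of all) and 7 of 123 D5 regions were absent with GLI1 (5.69% against 46.8%). Among weak D5 regions, those under a fold of 10, 8 of 74 were absent in D7 control (10.8%, 5.58 to 19.9) against 57.3%. In the other direction the weak regions lay near the background: 31 of 44 weak D7 control regions were absent at D5 (70.5%, 55.8 to 81.8) against 75.2%, and 28 of 35 weak GLI1 regions were, against 77.0%. These weak sets are unlike, because folds at D5 have another scale. A fold of 10 was reached by 6164 of 38281 D5 regions and by 13270 of 37973 D7 control regions. Weak D5 regions include main peaks such as that of Rpl13a (9.84), so the directions cannot be set against each other. The caller backgrounds of the D5 and D7 lists differ, and only the D7 lists are named as filtered (rmBLchrM). Read depths are not known. The part of these differences, or of read depth, in the shares was not tested.

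Of the 94 D7 control regions with a fold of at least 10, a single region lacked a D5 overlap (1.06% against 18.7% of all such regions). It lay in Pidd1, in the window of Rplp2, with a fold of 11.0 in D7 control and 14.9 with GLI1. Weaker regions without a D5 overlap lay by Rps29 (6.48), in Apc2 by Rps15 and in Zc3h10 by Rpl41 (5.22 each), by Rps13 (5.04) and by Rpl41 (4.86). A region within Rpl41, another within Rpl38 and another by Rps6 had 4.32 each, and those by Rps16 and Rps24 had 4.14 and 3.96. None of the regions named here is the strongest peak of a subunit gene.

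The 9 D5 regions without D7 control overlap included the starts of Rps19bp1 (8.64), which encodes a nucleolar partner of Rps19, and of Rps23rg1 (7.75), and the region of Rps25 (8.18). Rps25 is a small subunit protein needed for translation from certain internal entry sites, and this summit lay in the adjacent Trappc4, at -406 bp from the Rps25 start. Others were beside Atf4 in the window of Rps19bp1 (10.1), in Camsap3 by Rps23rg1 (7.08), 2 by Rpl34-ps1 (5.77 and 5.05) and in Denn2b by Rpl27a (5.32). The Rps25 region and both regions of the Rps19bp1 window lie where both D7 lists skip peak numbers. The stretch around Rps25 skips 11 numbers over 180 kb in D7 control and over 129 kb with GLI1, and holds 10 D5 regions. That around Rps19bp1 skips 5 numbers over 98.9 kb and 4 over 87.5 kb, with 3 D5 regions. An absence of Rps25 and Rps19bp1 at D7 can therefore not be told apart from peaks taken out of the D7 lists. Without D5 regions in such stretches, the share absent in D7 control was 5.0%, against 48.6% of all.

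Across all 3 lists, 105 of 138 D7 control regions had overlaps in both other lists (76.1%, 68.3 to 82.4), against 41.7% of all and 49.7% of other regions near genes. Among regions with a fold of at least 10 it was 93 of 94, against 81.1% of all. The exception, the Pidd1 region in the window of Rplp2, lacked a D5 overlap.

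The fold of ribosomal protein genes was slightly higher with GLI1 than in D7 control, as it was at other starts. Over 72 subunit and stalk genes the log2 ratio of the strongest peak's fold, GLI1 to control, had a median of 0.17 and ran from -0.43 to 0.76, with 53 genes above 0 and 19 below. Of all shared regions with a fold of at least 10 in both D7 lists, 66.8% were above 0. At annotated starts the median log2 ratio was 0.18 for 56 ribosomal protein genes (middle 50% -0.05 to 0.34) and 0.15 for 9560 other genes (-0.04 to 0.35). At these starts 3 of 56 were past 1.5-fold higher (5.36%) against 9.59% of other starts, and 0 were past 1.5-fold lower against 1.84%. The median of the set was therefore that of starts in general.

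Rpl13, of the large subunit, had the largest log2 ratio among subunit genes, 0.76, from 16.6 in D7 control to 28.1 with GLI1. Rpl15 had 0.61, from 45.0 to 68.6, Rps28 0.60, from 16.4 to 24.7, and Rpl36 0.59, from 27.4 to 41.1. These 4 of 72 genes were past 1.5-fold higher and none was past 1.5-fold lower. At other starts 9.59% were higher and 1.84% lower. Of all shared regions with a fold of at least 10 in both D7 lists, 6.95% were higher and 4.33% lower. The Rpl36 summit lay closer to Micos13 than to Rpl36 in both D7 lists. Likewise the Rpl15 summit lay closer to Nkiras1 and the Rps28 summit closer to Ndufa7, though both were within 500 bp of their own starts. Rps23rg1 had 1.10, from 2.70 to 5.79, but these peaks were at different places in its window, Camsap3 in control and its own start with GLI1.

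At the other end, Rpl38, a large subunit protein known for its part in translating Hox mRNAs, had a log2 ratio of -0.43, from 19.8 in D7 control to 14.7 with GLI1. Rpl5, which with Rpl11 can bind Mdm2, had -0.33, from 30.6 to 24.4. Rps7 had -0.29 (20.2 to 16.5), Rplp1 -0.28 (23.9 to 19.7) and Rps10 -0.27 (38.3 to 31.8). None of these reached 1.5-fold, and without replicates no single gene can be said to differ.

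**Figure D4:**
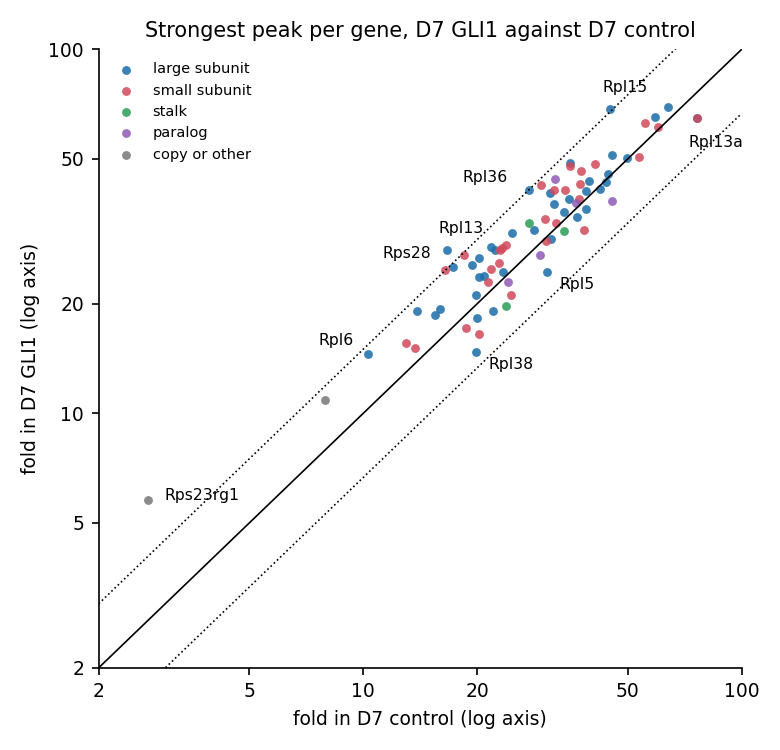
Fold of the strongest peak per gene in D7 control (horizontal, log axis) and with GLI1 (vertical, log axis), 1 point a gene. The solid line marks equal folds and the dotted lines 1.5-fold. Rpl13, Rpl15, Rps28 and Rpl36 lie on or just above the upper dotted line, with log2 ratios of 0.59 to 0.76, and no gene lies under the lower one.

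Taken over regions in place of genes, 117 GLI1 regions of the set overlapped a D7 control region. Their median log2 ratio was 0.15 (middle 50% -0.04 to 0.34) against 0.06 for all 25659 such regions. Past 1.5-fold, 11 were higher (9.40% against 12.8% of all) and 4 lower (3.42% against 17.3%). The 4 lower regions, by Rpl27a (-2.98), by Rpl31 (-1.29) and in Surf1 by Rpl7a (-1.10 and -0.69), are each 1 of 2 GLI1 regions that overlap the same control region. With overlapping regions of both lists joined, chosen after seeing the data, Rpl27a had 0.24 and Rpl31 0.40, and only the Surf1 region remained lower, at -0.69. In that form 11 of 114 joined regions were higher (9.65% against 13.5% of all) and 1 lower (0.877% against 13.8%), with a median of 0.17 against 0.09.

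Several of the higher regions belong to the neighbourhood of a ribosomal protein gene more than to its start. They include a region of Apc2 by Rps15 (1.29), of Camsap3 by Rps23rg1 (0.91) and within Rpl36 (0.80), with GLI1 folds of 7.02, 5.09 and 5.97. Among regions with a fold of at least 10 in both D7 lists, the set had 94, with a median log2 ratio of 0.16, 5 higher (5.32% against 6.95% of all) and 0 lower (against 4.33%). All 11137 regions of that strength had a median of 0.12.

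**Figure D5:**
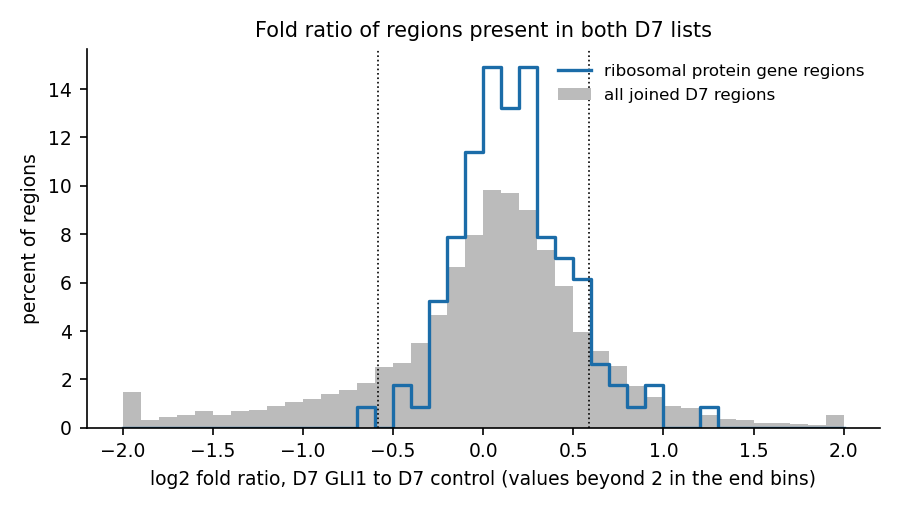
Log2 ratio of the highest fold, D7 GLI1 to D7 control (horizontal axis), of joined regions present in both D7 lists, as a percent of regions in bins of 0.1, for 114 ribosomal protein gene regions (line) and 24346 joined regions (bars). Dotted lines mark 1.5-fold. The set has a middle 50% of -0.03 to 0.35 and a thin lower tail, with 1 region under the lower dotted line.

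Across the 72 subunit and stalk genes, the order of folds was similar in both D7 lists (Spearman's rho 0.92) and less so between D5 and D7 control (0.38) or D5 and GLI1 (0.39). The same coefficients over other gene starts were 0.96, 0.58 and 0.60 (9560, 9085 and 9223 starts). Genes are not independent replicates, and the points of a list share libraries, depth and caller background. Rpl15, for example, had a start fold of 16.2 at D5 and 45.0 in D7 control, while Rpl13a had 9.84 and 76.1.

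Promoters with CCGGAA had a median start fold of 32.4 in D7 control (29 subunit and stalk genes, 10.3 to 63.9) and those without it 22.9 (23 genes, 12.8 to 76.1). With GLI1 the medians were 33.4 and 27.2, and at D5 11.1 and 10.1. The ranges overlapped almost wholly. The 6 genes with the CG-rich palindrome ran from 12.8 at Rpl12 to 60.1 at Rps19 in D7 control, with a median of 27.4 against 28.4 without it, so the printed promoters that share this motif did not share a level.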

How the data were processed

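ATAC-seq peak lists of 8 libraries in 3 groups were used, 1 list for each group, with its libraries pooled. Bowtie2 2.3.2, MACS2 2.1.1, SAMtools 1.5 and Picard are listed, with the build mm10, in the notes on processing that came from the submitters (the submitters' processing notes). Per the narrowPeak format of the deposited lists, the authors give each peak a fold enrichment at its summit, a −log10 q, a score and the summit's offset in bases. Read depth per library is not given in the sources used here. The D7 control list was taken as D7 because its name pairs with that of the doxycycline list, which is an inference.

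Peaks of a list that overlap were joined into regions on the 19 autosomes (Python 3.11.15, pandas 2.3.3, numpy 2.4.6). Genes, starts and promoters came from RefSeq on GRCm38.p6, the build of mm10. Regions of different lists that share at least 1 base were called shared. Ratios compare the highest fold. The region scripts were tested on simulated lists. The running peak numbers skip at 369 places in the D7 control list and at 389 in the GLI1 list. The names of both D7 lists carry rmBLchrM, which reads as removal of blacklisted and mitochondrial peaks, and the D5 name does not. Whether that removal made the skips was not tested.

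Genes named are the stalk genes, Rpsa, Rps6, Rpl3, Rpl3l, the paralogs and other non-subunit genes, genes lacking a region in a list, up to 12 regions by fold for each kind of absence, and the 5 highest and lowest folds and ratios. Others were named for context after their values were seen. Some genes and regions that the rule takes are not reported here by name, and counts and medians include them. The members, motifs, lists and the split at a fold of 10 were chosen with earlier results of these data known. Alternatives covered the window, nearest gene, q threshold, list length, overlap, fold threshold and centring.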

Additional observations from a re-analysis of the deposited data

How the results depend on the processing

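No paired analysis was possible because the libraries of a group were pooled before peaks were called. In each of the alternatives run, the shares absent from another list stayed below the share over all regions, and the median ratio stayed above 0. With a window of 1 kb, 8.08% of GLI1 regions were absent in D7 control (39.2% of all). Of 91 shared regions 7 were higher and 2 lower past 1.5-fold (12.8% and 17.3% of all). Where the ribosomal protein gene had to be nearest, 4 of 77 were higher and 2 lower (again 12.8% and 17.3% of all). With −log10 q of at least 5, 5.17% of D7 control regions were absent with GLI1 (27.4% of all). With lists of equal length, 11.2% were absent at D5 (47.0% of all). With summed folds, 17 of 117 regions were higher and 7 lower (18.1% and 20.7% of all). Past 2-fold, 1 was higher and 3 were lower (3.96% and 10.7% of all). Minus the median of shared regions near genes, the median ratio was 0.06 and 7 were higher (9.84% of all). With joined regions 1 of 114 was lower (13.8% of all). In the 100 bases before the start and 20 after, CCGGAA was in 39.4% of promoters against 13.7% of all, ATGGCG in 13.6% against 4.89%, and TATAAA in 1.52% against 7.54%. Other causes of these shifts than fewer regions or bases were not tested. For 10 genes with the highest and lowest ratios, 37 of 39 alternative values moved by less than 0.3. Most of these could hardly move. The q threshold and list length keep a gene's strongest peak or drop it, and centring shifts every ratio alike. Only summed folds could change single ratios, so the count says little about how stable they are. The others were Rpl15 (0.96) and Rps23rg1 (1.73) with summed folds. The D5 list had fewer peaks than D7 control, but its joined regions were not fewer (38281 against 37973). They covered 12.7 Mb, against 26.6 Mb in D7 control. That smaller span and unknown read depth limit what an absence at D5 means.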

Other observations

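Gene sets of related function had strongest peaks of differing fold in D7 control. Ribosomal protein genes had a median of 29.5 (middle 50% 20.5 to 37.5), genes of the mitochondrial ribosome 23.0 (78 genes), proteasome subunits 23.9 (39 genes), translation factors 34.5 (68 genes) and ribosome biogenesis genes 37.4 (21 genes). Other genes whose mRNAs carry a terminal oligopyrimidine tract, such as Eef1a1 and Rack1, had the highest of these medians, 49.5 (29.9 to 58.5, 20 genes, 19 with a region). Of the GLI1 regions of these sets, 14.6% were absent in D7 control for the mitochondrial ribosome, 21.2% for the proteasome, 20.5% for translation factors, 16.3% for ribosome biogenesis and 25% for the other oligopyrimidine genes, beside 13.3% for ribosomal protein genes. Of the D7 control regions, the shares absent with GLI1 were 8.66%, 15.0%, 14.5%, 9.76% and 6.06% in that order, beside 12.3% for ribosomal protein genes. Of the D5 regions, the shares absent in D7 control were 10.3%, 14.8%, 13.2%, 5.41% and 12.5%, beside 7.32%. So ribosomal protein genes had the lowest share in the GLI1 direction, by a narrow margin, and not in the other shares given. Their interval in that direction, 8.60 to 20.1, takes in the 14.6% of the mitochondrial ribosome and the 16.3% of ribosome biogenesis. Median log2 ratios of shared regions, GLI1 to control, were 0.08, 0.15, 0.16, -0.04 and -0.02 in the same order, beside 0.15. The 8 S6 kinase genes, left out of the set by its rule, had a median fold of 29.2, and 8 of their 23 GLI1 regions were absent in D7 control (34.8%), as were 2 of 19 D7 control regions with GLI1 (10.5%).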
